A study of Mus musculus with 4 samples.

Results

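The miR-181 family was followed in mouse embryonic stem cells (ESCs) with and without DNA methyltransferases. Probes were chosen by name, as every probe for mmu-miR-181a, mmu-miR-181b, mmu-miR-181c or mmu-miR-181d on either strand (below without the species prefix mmu). This gave 3 of the 566 probes for mouse miRNAs, with 1 for miR-181a, 1 that miR-181b and miR-181d share, and 1 for miR-181c. No probe name marks a 3p (star) strand of the family, so those strands were not analysed here. Mature miRNAs were counted with the NanoString nCounter assay in R1 mouse ESCs that were wild type (WT) and in R1 ESCs in which all 3 DNA methyltransferase genes, Dnmt1, Dnmt3a and Dnmt3b, are knocked out (TKO), with 2 replicates of each genotype. All 4 samples were grown on gelatin with serum and leukemia inhibitory factor, and the labels also state 4 days of differentiation before RNA isolation for both genotypes. Leukemia inhibitory factor maintains ESCs undifferentiated, so these statements conflict, and the differentiation state of the samples was not settled here. The cells are called ESCs as in the labels. The sources name 1 WT and 1 TKO line, so a difference between the lines cannot be told apart from the genotype, and the p-values measure the spread between replicates of these lines. The table holds miRNA probes and not mRNAs, so the deleted genes could not be checked in it.

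A miRNA is cut from a longer primary transcript by Drosha and then from its hairpin by Dicer, and the mature strand pairs with target mRNAs mainly through its seed, bases 2 to 8. The miR-181 family is known for its role in lymphocytes, where miR-181a sets the sensitivity of T cells to antigen. In ESCs, miR-181 and the miR-125 family were described as regulators of Cbx7, a Polycomb subunit of the pluripotent state that is lost upon differentiation.

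The 4 mature 5p strands are shown to compare the members, since miR-181b and miR-181d share a probe. They are written 5′ to 3′ from RefSeq (GRCm38.p6), with the seed in capitals.
miR-181a-5p: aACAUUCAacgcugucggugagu
miR-181c-5p: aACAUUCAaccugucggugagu
miR-181b-5p: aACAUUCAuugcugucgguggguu
miR-181d-5p: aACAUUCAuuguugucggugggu
All 4 carry the seed ACAUUCA, and these 4 are the only names with it among the 1679 mature miRNA names in the RefSeq table. Positions are counted from 1 at the 5′ end. miR-181d differs from miR-181b by the substitution C12U and by 1 base fewer at the 3′ end, and this is the pair that shares a probe. miR-181c is identical to miR-181a at 22 bases and lacks only the G at position 11. miR-181b differs from miR-181a by A9U, C10U and A21G and by 1 added base at the 3′ end. miR-181b and miR-181d are also identical at 22 bases, so this count does not tell which pair shares a probe. Each pair differs only outside the seed, and cross-hybridization between the miR-181a and miR-181c probes was not tested.

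The family is encoded by 6 precursors at 3 loci of GRCm38.p6, in pairs that lie close together. Mir181a-1 (chr1:137966455-137966541, plus strand) and Mir181b-1 (chr1:137966639-137966718, plus strand) are 97 bases apart, and no other gene of the RefSeq table spans them. Mir181a-2 (chr2:38852735-38852810, plus strand) and Mir181b-2 (chr2:38853830-38853918, plus strand) are 1019 bases apart. Both lie within the span of the noncoding Nr6a1os, on the same strand, and within that of Nr6a1 on the opposite strand. Nr6a1, also called GCNF, is a nuclear receptor known to repress Oct4 as ESCs differentiate. Mir181d (chr8:84178716-84178787, minus strand) and Mir181c (chr8:84178873-84178961, minus strand) are 85 bases apart, with no other gene spanning them. Exons and introns were not told apart, since only gene spans were used.

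The hairpins of miR-181a and miR-181b are shown because each of these miRNAs is made at both the chromosome 1 and the chromosome 2 locus. The capitals mark the mature 5p strand.
Mir181a-1: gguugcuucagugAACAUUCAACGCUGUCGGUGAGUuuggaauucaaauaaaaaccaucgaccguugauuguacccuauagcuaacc
Mir181a-2: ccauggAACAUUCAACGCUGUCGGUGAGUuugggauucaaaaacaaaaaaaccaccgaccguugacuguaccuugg
Mir181b-1: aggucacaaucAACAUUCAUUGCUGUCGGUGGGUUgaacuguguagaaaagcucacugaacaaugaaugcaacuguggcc
Mir181b-2: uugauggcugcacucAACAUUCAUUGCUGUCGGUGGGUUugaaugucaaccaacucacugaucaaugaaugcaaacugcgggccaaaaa
The mature strand is the same in both hairpins of a pair, so the probe adds the output of both loci. Methylation of the miRNA loci is what the study sorted them by. In its list, Mir181c and Mir181d are in the depleted group and Mir181a-1 and Mir181b-1 in the flat group, both called unmethylated. Mir181b-2 is in the downstream group, which is called methylated, and Mir181a-2 is not listed. The miR-181c probe is therefore the only one of the family whose precursor falls in a single group, while the shared probe reads miRNAs from loci of 3 groups. The dinucleotide CG, the site of DNA methylation, occurs 4 times in the hairpins of Mir181a-1 and Mir181a-2, once in Mir181b-1, and 2 times each in Mir181b-2 and Mir181d. The sequences used here hold no hairpin of Mir181c, so its CG were not counted. The median of the 1005 mouse hairpins in the table is 1 CG, and 14.4% hold 4 or more.

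The deposited values are log2 of normalized counts, given below as normalized counts. They are whole counts multiplied by 1 factor per sample, and the recovered counts summed to between 511661 and 613666 per sample. The 33 probes for viral miRNAs had a mean of 31.5 normalized counts, and their mean plus 2 SD, 69.2, was taken as the background threshold. It was passed by 42.0% of the mouse probes, among them all 3 miR-181 probes. The labels give no batch. The miR-290 cluster, which marks ESCs, took between 51.2% and 57.4% of the mouse signal in each sample, and the 3 probes for the muscle miRNAs miR-1, miR-133a and miR-206 and that for the liver miRNA miR-122 did not pass the threshold. Of the neuronal miRNAs, miR-9 was measured at 77.2 to 121 normalized counts, and miR-124 fell from 500 and 457 in WT to 132 and 134 in TKO cells (log2 difference -1.84, SE 0.15, adjusted p = 0.00620 from limma). With any 1 sample left out miR-124 was no longer called (adjusted p between 0.0544 and 0.115 from limma), at differences between -1.90 and -1.77.

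All 3 miR-181 probes had lower mean levels in TKO than in WT cells, as did 61.7% of all mouse probes on the log2 scale, and none of the 3 differences passed the test. The mean was 26.5% lower for miR-181a, 17.5% lower for miR-181b and miR-181d together and 4.46% lower for miR-181c. In a bulk sample, fewer cells with a miRNA and less of it per cell cannot be told apart.

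miR-181a, the member best known from T cells, was the highest of the 3 probes. The WT replicates gave 233 and 178 normalized counts, the TKO replicates 142 and 160. Both TKO values lay below both WT values, but WT replicate 1 stood well above WT replicate 2. The replicate gap in WT cells was 0.39 on the log2 scale, against a difference between the genotypes of -0.43 (SE 0.20, 95% confidence interval -0.97 to 0.11, adjusted p = 0.284 from limma). Without WT replicate 1 the difference was -0.24 (adjusted p = 0.601 from limma). These log2 values are of the normalized count plus 1, here and below.

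The probe shared by miR-181b and miR-181d gave 134 and 131 normalized counts for the WT replicates, and 117 and 102 for the TKO replicates. The WT replicates were nearly equal and both TKO values were lower. The log2 difference was -0.28 (SE 0.16, 95% confidence interval -0.70 to 0.14, adjusted p = 0.355 from limma). Without TKO replicate 2, the lowest of the samples, it was -0.18 (adjusted p = 0.624 from limma). How much of the signal is miR-181b and how much is miR-181d cannot be told apart with this probe.

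miR-181c was the lowest, with WT values of 80.3 and 84.5 normalized counts and TKO values of 78.1 and 79.3. All 4 values lay close together and only a little above the background threshold of 69.2, and the TKO values were just under the WT values. The log2 difference was -0.065 (SE 0.14, 95% confidence interval -0.45 to 0.32, adjusted p = 0.838 from limma). The interval leaves room at least for any difference from -0.45 to 0.32, so equal levels are not shown.

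**Figure D1:**
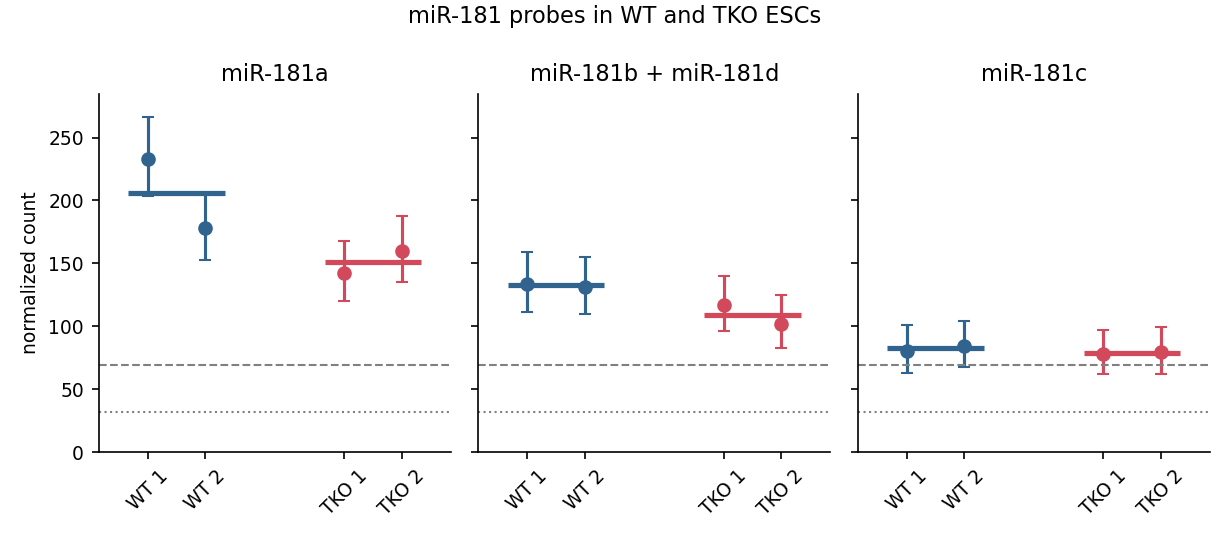
Normalized counts (y axis, linear, from 0) of the 3 miR-181 probes in each of the 4 samples, WT in blue and TKO in red. Points are samples with exact 95% Poisson intervals of the recovered counts, thick lines are group means, and the dashed and dotted lines are the background threshold of 69.2 and the viral mean of 31.5. The TKO points lie below the WT points in every panel, most clearly for miR-181a, while miR-181c sits near the threshold in all samples.

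Few molecules were counted for each probe, which bounds the precision. The recovered counts were 144 to 218 for miR-181a, 95 to 135 for miR-181b with miR-181d and 74 to 87 for miR-181c. Exact Poisson intervals, which cover counting error only, reached for miR-181a from 203 to 266 normalized counts in WT replicate 1 and from 153 to 205 in WT replicate 2. The TKO intervals for miR-181a were 120 to 168 and 135 to 188, so they overlapped that of WT replicate 2, and WT replicate 1 alone stood apart from both. For the shared probe and miR-181c every WT interval overlapped every TKO interval. Counting error alone gives the log2 difference an SE of 0.11 for miR-181a, 0.13 for the shared probe and 0.16 for miR-181c. For miR-181c this is more than the SE of 0.14 from the fit, which limma moderates with the spread of all mouse probes. That SE is therefore no measure of how close its 4 values lie, and the confidence interval drawn from it may be too narrow. The replicates of miR-181c were 0.073 apart in WT and 0.023 apart in TKO cells on the log2 scale. This closeness was not tested against counting error.

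Of the 3 miR-181 probes limma called 0 after adjustment, where it called 8.48% of all mouse probes (4.24% lower and 4.24% higher in TKO cells). At an unadjusted p under 0.05 it also called 0 of the 3, beside 23.5% of all mouse probes. voom on the recovered counts called 0 of the 3 and 15.0% of all mouse probes. Both TKO values lay below both WT values for 3 of 3 miR-181 probes, and for 36.0% of all mouse probes. The median log2 difference of the miR-181 probes was -0.28, beside -0.12 for all 566 mouse probes, -0.20 for the 238 above background and -0.21 for the 79 above background whose WT mean lies between those of miR-181c and miR-181a. Among the probes above background, the called fall closest to 0 was that of miR-25, at -0.83, which was looked up after the values were seen. It lies within the 95% confidence interval of miR-181a and outside those of the other miR-181 probes, of which that of miR-181c may be too narrow.

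**Figure D2:**
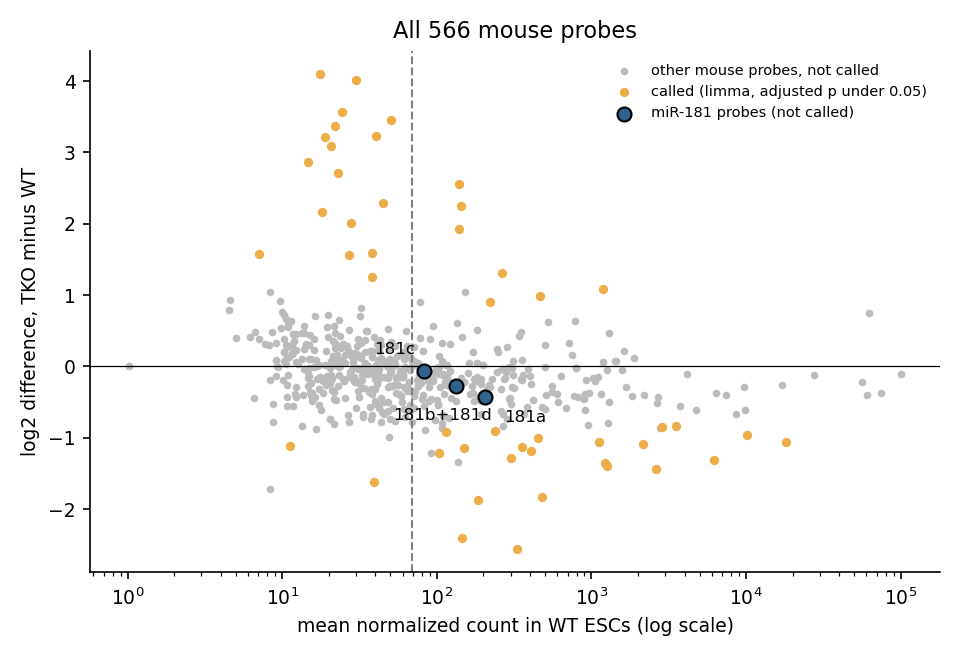
Log2 difference between TKO and WT cells (y axis) against the mean normalized count in WT cells (x axis, log scale) for all 566 mouse probes. Orange points were called by limma, grey points were not, and the dashed line is the background threshold. The 3 miR-181 probes (blue) lie inside the cloud of probes that were not called, from -0.43 for miR-181a to -0.065 for miR-181c.

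The zero point of these differences depends on how the samples were scaled. When the sum of the mouse probes was made equal in all samples, the median of all mouse probes moved from -0.12 to 0.0089. The differences were then -0.30 for miR-181a, -0.15 for the shared probe and 0.068 for miR-181c, which thus changed direction. Relative to the median of all mouse probes, miR-181a stood at -0.31 and miR-181c at 0.058 as deposited, and at -0.31 and 0.059 after division by the sum. Both TKO values of miR-181a remained below both WT values under sum and viral probe scaling and not under median scaling. Those of miR-181c overlapped the WT values under all 3 of these scalings, and those of the shared probe under all but median scaling. Of the 3 miR-181 probes, 1 thus had both TKO values below both WT values under each of these scalings, beside 23.1% of all mouse probes with sum scaling, 28.8% with viral probe scaling and 25.4% with median scaling.

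The members were set against each other within each sample, where the scaling drops out almost entirely. On the log2 scale, miR-181c minus miR-181a was -1.53 and -1.06 for the WT replicates, and -0.86 and -1.001 for the TKO replicates. Probes may differ in efficiency, so these values bear on the change between genotypes and not on which miRNA is more abundant. This difference was closer to 0 in both TKO than in both WT samples, and TKO minus WT was 0.37 on average (exact permutation test over samples, two-sided, p = 0.333, the smallest that 2 against 2 samples can give). Leaving out WT replicate 1 gave 0.13 and leaving out WT replicate 2 gave 0.60, so its size rests on the WT replicates. With the viral mean of each sample subtracted, the value of WT replicate 2 (-1.42) lay between those of the TKO replicates (-1.19 and -1.44) and the groups overlapped (exact permutation test, two-sided, p = 0.667). The shared probe minus miR-181a was -0.80 and -0.44 for the WT and -0.29 and -0.64 for the TKO replicates, and these overlap (exact permutation test, two-sided, p = 0.667). miR-181c minus the shared probe was -0.73 and -0.63 for the WT and -0.57 and -0.36 for the TKO replicates (exact permutation test, two-sided, p = 0.333). Of these 3 pairs, none could pass the threshold in this design, with or without adjustment.

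**Figure D3:**
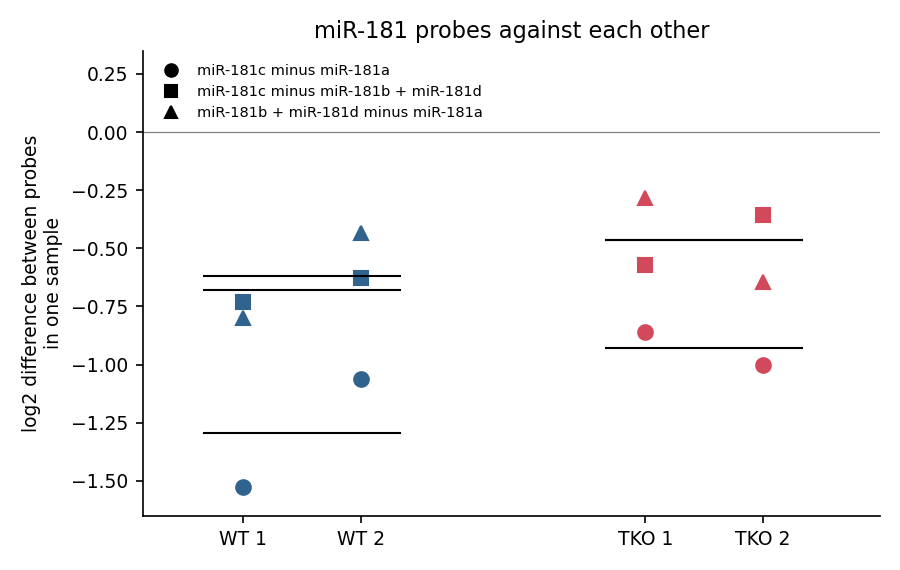
Log2 difference between pairs of miR-181 probes in the same sample (y axis) for the 4 samples, WT in blue and TKO in red. Circles are miR-181c minus miR-181a, squares miR-181c minus the shared probe, triangles the shared probe minus miR-181a, and lines are group means. The WT circles, at -1.53 and -1.06, lie below both TKO circles, and the triangles of the groups overlap.

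Together the 3 probes read 447 and 393 normalized counts for the WT replicates, against 337 and 341 for the TKO replicates. Their share of the mouse signal was 0.0760% and 0.0661% in the WT samples, against 0.0668% and 0.0592% in the TKO samples, so that as a share WT replicate 2 and TKO replicate 1 were nearly equal. miR-181a made up 52.2% and 45.2% of this sum in the WT replicates, then 42.2% and 46.9% in the TKO replicates. miR-181c made up 17.9% and 21.5% of it in the WT replicates, then 23.2% and 23.3% in the TKO replicates.

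About 30 kb from Mir181c and Mir181d on chromosome 8 lies another miRNA cluster, with Mir23a, Mir27a and Mir24-2, which the study placed in the downstream group. Its miRNAs are known from blood and muscle development. None of its 3 probes was called, beside 8.48% of all mouse probes. miR-23a had WT values of 773 and 810 normalized counts and TKO values of 780 and 774, with a log2 difference of -0.026 (SE 0.14). miR-27a had a difference of -0.049 (SE 0.15). That of miR-181c was -0.065 and that of the shared probe, which also reads miR-181d, was -0.28. The median of all mouse probes was -0.12, so a small difference is not particular to this region. miR-24, which also has a precursor elsewhere that this probe cannot separate, had WT values of 186 and 197 and TKO values of 152 and 123 (log2 difference -0.48, SE 0.18, limma adjusted p = 0.209).

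The miR-125 family, described with miR-181 as acting on Cbx7, had 5 probes. As deposited, both TKO values lay below both WT values for all 5, beside 36.0% of all mouse probes. This was not counted under the other scalings, on which it can depend. Of the 5, limma called 1 lower and 0 higher, beside 4.24% lower and 4.24% higher among all mouse probes. The median log2 difference was -0.44, and only miR-125a-3p and miR-125a-5p passed the background threshold as a mean over the 4 samples. The called probe was miR-125a-3p (-0.93, SE 0.16, adjusted p = 0.0403 from limma), which does not carry the miR-125 seed CCCUGAG. Its WT values were 116.65 and 110.73 normalized counts. Its TKO values, 63.25 and 55.74, were both under the threshold of 69.2, so it passed only through the WT samples. limma did not call it under sum scaling (adjusted p = 0.109), under median scaling (adjusted p = 0.0658) or with the viral mean subtracted (adjusted p = 0.149). With any 1 sample left out miR-125a-3p was no longer called, and its difference was between -1.01 and -0.84. The 3 probes for strands with the seed CCCUGAG were not called. Of these, miR-125a-5p had WT values of 975 and 869 normalized counts and TKO values of 827 and 794, with a log2 difference of -0.18. miR-125b-5p had WT values of 79.2 and 89.4 and TKO values of 40.5 and 49.3 (-0.90, adjusted p = 0.0610 from limma), with both TKO values under the threshold of 69.2, and miR-351 stayed below background in all samples (-0.44).

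Of 6 probes for miRNAs of blood cells, where miR-181 is best known, limma called 1 lower and 0 higher. Among all mouse probes it called 4.24% lower and 4.24% higher. The median log2 difference of the 6 was 0.14. miR-150, a miRNA of mature lymphocytes, fell from 429 and 388 normalized counts in WT to 167 and 193 in TKO cells (-1.18, SE 0.17, adjusted p = 0.0238 from limma). With any 1 sample left out it was no longer called (adjusted p between 0.134 and 0.160), at differences between -1.28 and -1.08. miR-142-3p, found across blood cells, had WT values of 807 and 762 and TKO values of 1159 and 1278, and this was not called (0.63, adjusted p = 0.0944 from limma). miR-223 (-0.64), miR-146a (0.31) and miR-155 (0.0073) did not pass the background threshold, and miR-155 was at 1 recovered count in each sample. The miR-181 probes lay between miR-150 and miR-142-3p in their differences, as most mouse probes did. Counted from the lowest difference, miR-150 ranked 15 and miR-142-3p 526 of the 566 mouse probes.

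**Figure D4:**
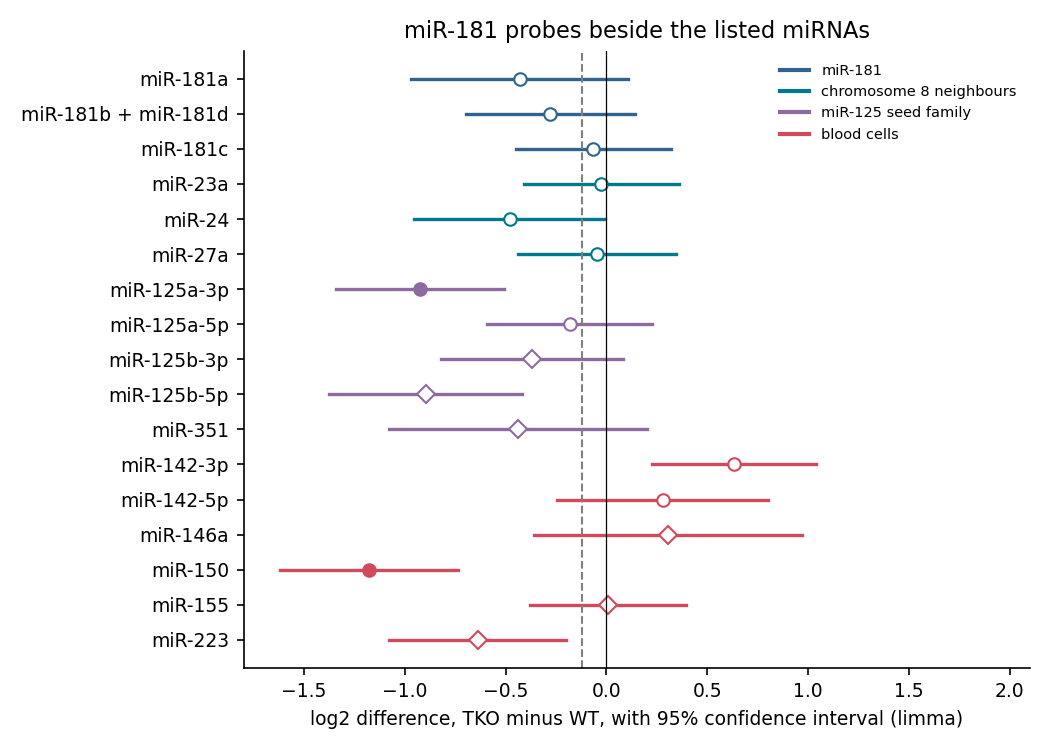
Log2 difference between TKO and WT cells with its 95% confidence interval from limma (x axis) for the 3 miR-181 probes, 3 neighbours on chromosome 8, 5 probes of the miR-125 family and 6 probes for miRNAs of blood cells. Filled symbols were called, circles passed the background threshold and diamonds did not, and the dashed line is the median of all mouse probes, -0.12. The intervals of all 3 miR-181 probes include 0, and only miR-125a-3p and miR-150 are filled.

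The likeness of other probes to the family was measured as the Euclidean distance, over the 4 samples, between log2 values centred on each probe's mean and the mean of the centred miR-181 values. Among the other 235 mouse probes above background the median distance was 0.41. The closest were miR-291a-3p of the miR-290 cluster (0.056), miR-1981 (0.057) and miR-466c-5p (0.078), with log2 differences of -0.22, -0.21 and -0.23, none called. The miR-181 probes themselves lay at 0.29 (miR-181a), 0.15 (the shared probe) and 0.24 (miR-181c), farther from their own mean than these probes. With 4 samples, many probes lie close to any small difference, and the distance is a description only.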

How the data were processed

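Total RNA of 4 samples was measured with the nCounter miRNA assay. Per the study's methods, nSolver was used for normalization, and the deposited values are log2 of normalized counts. The version, the handling of background and the normalizing probes are not given in the sources used here. The log2 values were turned back to normalized counts, and dividing by 1 factor per sample gave whole counts within 0.05 for 100% of values. A pseudocount of 1 was added, log2 was taken, and all 566 mouse probes, without a filter, were tested with limma (lmFit and eBayes, two-sided), with p-values adjusted after Benjamini-Hochberg over these probes and called at 0.05. Groups came from the sample titles. The planned comparison of miR-181c and miR-181d with miR-181a and miR-181b could not be made, since miR-181b and miR-181d share a probe, and miR-181c was compared with miR-181a instead.

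The miRNAs named are the family, miRNA precursors within 50 kb, the miR-125 family, miRNAs of blood cells, the miR-290 cluster, marker miRNAs of muscle, liver and neurons, and the 3 probes above background with the most similar values. The members, lists and tests were chosen with earlier results of these data known. Alternatives covered the pseudocount, scaling, background, a filter, voom, a replicate block and each sample left out. The fits were tested on simulated data. Sequences and positions are from RefSeq (GRCm38.p6), where all 4 mature names matched. The fits were run in R 4.3.3 with limma 3.58.1. Tables and figures were made in Python 3.11.15 with pandas 2.3.3, numpy 2.4.6, matplotlib 3.10.9 and, for the exact tests, scipy 1.17.1.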

Additional observations from a re-analysis of the deposited data

How the results depend on the processing

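Under 14 alternatives, limma or voom called 0 of the miR-181 probes, with adjusted p between 0.118 and 0.601 for miR-181a, 0.143 and 0.785 for the probe shared by miR-181b and miR-181d, and 0.676 and 1 for miR-181c. The difference was negative in all 14 for miR-181a (-0.63 to -0.24) and for the shared probe (-0.38 to -0.15), and in 12 for miR-181c. The filter, the replicate block and a crossed pairing of the replicates cannot change the difference itself, so their signs add no support. The signs with 1 sample left out, with another pseudocount or with voom add none either. Both TKO values lay below both WT values as deposited, so these could not reverse a sign. Only the scalings and the subtracted viral mean could. miR-181c changed direction to 0.068 with sum scaling and to 0.056 with median scaling, which moved the family median to -0.15 and -0.16 and the median of all mouse probes to 0.0089 and -0.0032. Over all mouse probes limma called 48, against 74 when probes below background were left out (48 lower and 26 higher) and 85 with voom (55 lower and 30 higher). With the replicate number as a block it called 30, and the block changed no call of a miR-181 probe and ended that of miR-150 (adjusted p = 0.0738) and miR-125a-3p (adjusted p = 0.102). The numbers were not taken to pair the samples, since deviations of same-numbered samples correlated at -0.24 over 238 probes above background. The crossed pairing, added after seeing the data, gave 64 calls and none of a miR-181 probe. With 1 sample left out limma called between 0 and 14 mouse probes, and the 0 without either TKO replicate stood beside 114 and 101 at an unadjusted p under 0.05. The recovered counts of 74 to 218 per probe limit what could be detected, and miR-181c lies near the background.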
